A study of Arabidopsis thaliana with 12 samples.

Results

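The 46 genes described here are nuclear genes for the photosynthetic apparatus, followed in roots of Arabidopsis thaliana. They were chosen by AGI locus, with no measured value in the rule, as 4 genes of the Rubisco small subunit (RBCS), Rubisco activase (RCA), 6 genes of the photosystem I antenna (LHCA), 15 of the photosystem II antenna (LHCB), 11 subunits of photosystem I (PSI) and 9 of photosystem II (PSII). All 46 were found on the array, with 160 probes, and all 46 were among the 25207 genes tested. The roots came from 7-day-old seedlings of WT (ecotype Col-0) and of *agb1*, the T-DNA insertion mutant *agb1-3*, which lacks the G protein beta subunit AGB1. The seedlings had stood for 0 or 4 h in liquid medium that held 150 mM NaCl, and each of the 4 groups had 3 single-colour Agilent arrays labelled as independent experiments. By the labels the control had 0 h of salt, whereas by the methods of the study it had 4 h without salt, so that its handling cannot be settled here. With a control taken at 0 h, salt cannot be told apart from 4 h in liquid medium or from the time of day. A change or response with salt below therefore names the comparison of 4 h with 0 h alone.

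Rubisco fixes carbon dioxide in the plastid stroma, and its small subunit is made from a nuclear gene family, whereas Rubisco activase frees its active sites of bound sugar phosphates. The LHCA and LHCB proteins bind chlorophyll and pass light energy to photosystem I and photosystem II, whose nuclear subunits hold the antenna, the electron carriers and the oxygen-evolving cluster in place. Roots carry little of this apparatus, but their plastids can green in light, and the seedlings had been raised on plates under a light-dark cycle.

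The values are log2 signals, the log2 intensity of the brightest probe of a gene minus the 75th percentile of its array, so that 0 is the 75th percentile. The 75th percentile lay between 1772 and 3582 intensity units on the 12 arrays, 74.1% to 76.1% of spots were well above background and no spot was saturated. A signal compares the same probe between arrays and is no measure of one gene against another. Of the 46 members, 44 were well above background on all 12 arrays. *AGB1* (AT4G34460) had a log2 signal of 1.26 to 1.64 on the WT arrays and of -0.10 to 0.88 on the *agb1* arrays, which did not overlap, with differences of -1.20 at 0 h (adjusted p = 0.034 in limma) and -0.74 at 4 h (adjusted p = 0.112), although the place of its probe relative to the insertion was not checked. The root markers *PYK10*, *CASP1*, *SCR*, *SHR*, *WOX5*, *PLT1*, *RHD6*, *MYB36*, *COBL9* and *EXPA7* were well above background on every array. Of 14 shoot or leaf markers, 10 or 11 were below this limit on every array of each group. The summed level of the 14 was -3.37 to -3.23 in WT 0 h, -2.74 to -0.79 in WT 4 h, -3.25 to -3.23 in *agb1* 0 h and -2.68 to -2.44 in *agb1* 4 h, and its highest value came with *CER1*, a gene of wax synthesis, at -0.86 on WT 4 h replicate 3. *CER1* was higher at 4 h than at 0 h in WT (adjusted p = 0.0243 in limma). Of the 10 root markers, 1 was higher and 2 were lower there at an adjusted p below 0.05, against 8.84% and 11.2% of all genes. These were *SCR*, *SHR* and *MYB36*, with adjusted p of 0.0306, 0.0499 and 0.0243 in limma.

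The arrays lay on 4 slides, of which slide 1 held replicate 1 of all groups, slide 3 held replicate 3 of all groups, slide 4 held replicate 2 of all groups but WT 0 h, and slide 2 held replicate 2 of WT 0 h alone. In *agb1* at 0 h, replicates 1 and 2 were near-identical, with a spread of 0.0849 on the log2 scale over 17372 bright probes, against 0.0856 for repeated spots of the same arrays. They differed by less than this noise and were counted as 1 sample, so that *agb1* at 0 h has 2 samples. WT 4 h replicate 3 lay below both other WT 4 h arrays for all 46 members, and more than 2-fold below their mean for 32 of 46, against 7.18% of all genes. *agb1* 0 h replicate 3 lay above both other arrays of its group for 38 of the 42 members other than RBCS and below both for all 4 RBCS genes, as the heat map of the 46 members shows. Of the 10 root markers, *COBL9* and *EXPA7*, genes of root hairs, also differed on these 2 arrays. They were picked from the list, and the values of the others, *RHD6* among them, are not given here. *COBL9* had a log2 signal of 1.32 on WT 4 h replicate 3, against -0.71 and -0.65 on replicates 1 and 2, and *EXPA7* had 1.93 against 0.12 and -0.32. On *agb1* 0 h replicate 3 *COBL9* had 0.27, against 1.91 and 2.02, and *EXPA7* had 0.06 against 1.25 and 1.31. The part of these differences between arrays in the results below was not tested. Members move together from array to array, so that a count of members is not a count of independent genes.

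**Figure D1:**
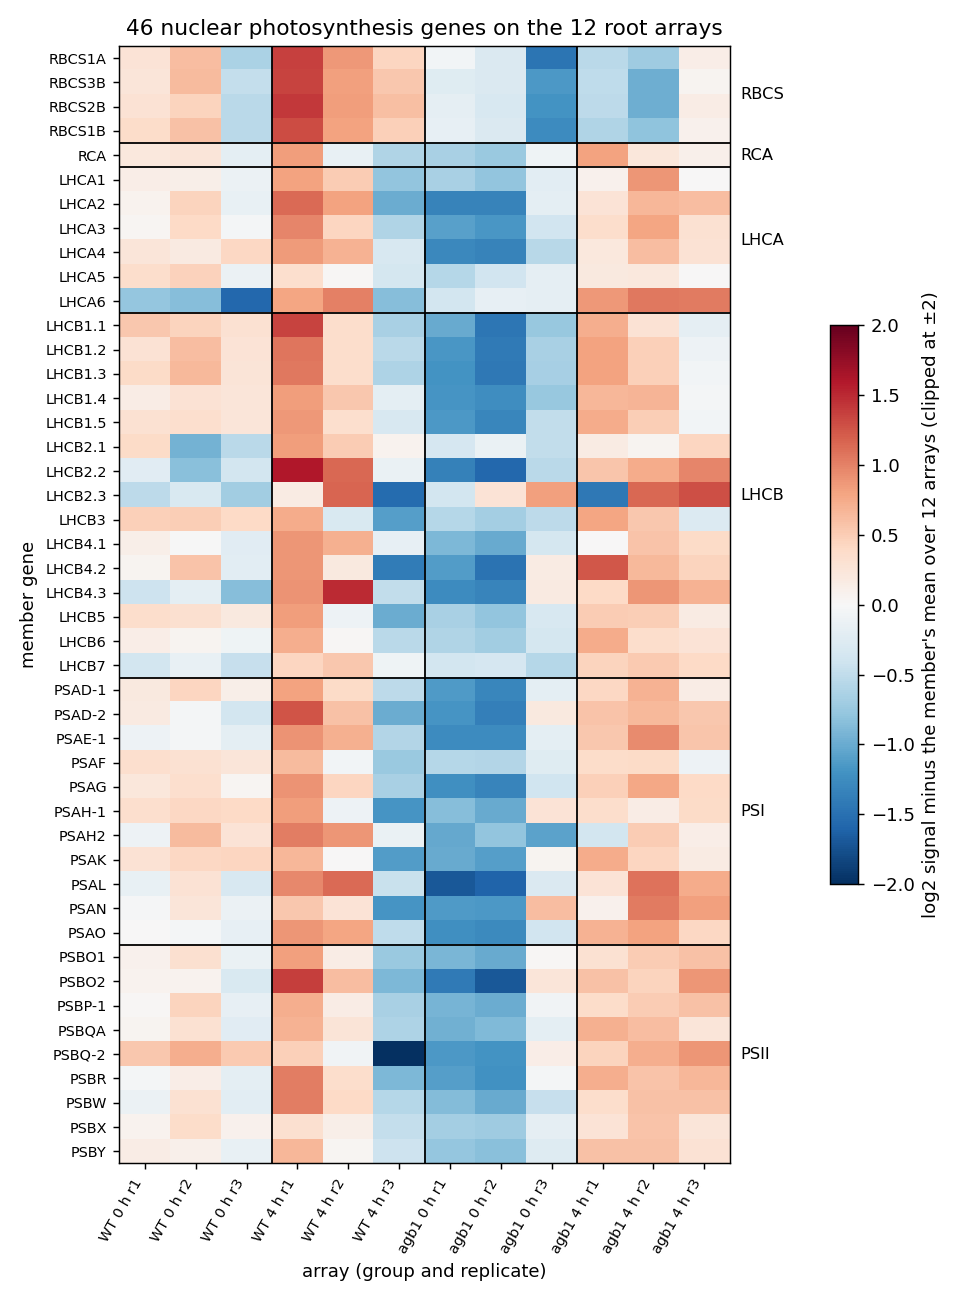
Log2 signal of each of the 46 members (rows, by complex) on each of the 12 arrays (columns, by group and replicate), minus the member's mean over the 12 arrays, with red above and blue below that mean. WT 4 h replicate 3 is below both other arrays of its group for all 46 members, and on *agb1* 0 h replicate 3 the 4 RBCS genes are darker blue than on replicates 1 and 2 while most other members are paler.

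At 0 h of salt, 43 of 46 members had a lower mean log2 signal in *agb1* than in WT, with a median difference of -0.70, against 0.00 over all genes. No member passed an adjusted p of 0.05 in limma, where 1.29% of all genes were called lower and 0.591% higher. At an unadjusted p below 0.05 the count was 11 lower and 0 higher, against 10.4% and 8.94% of all genes. All 3 *agb1* arrays lay below all 3 WT arrays for 26 of 46 members (56.5%), against 20.3% of all genes, and above them for 1 member, *LHCA6*, which was not well above background on any of these arrays, against 20% of all genes, with 2 of the 3 *agb1* arrays near-identical. In whole roots, fewer cells of a type and less RNA per cell cannot be told apart.

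The largest differences at 0 h included those of photosystem II antenna genes. *LHCB1.1* (AT1G29920), a gene of the trimeric light-harvesting complex, had the lowest estimate of all members, -1.42 ± 0.49 (SE, adjusted p = 0.166 in limma). Its log2 signals were -0.12, -0.23 and -0.36 in WT and -1.68, -2.11 and -1.42 in *agb1*, so that the groups did not overlap. The other probes of *LHCB1.1* gave -0.71 and -0.65, so that its rank rests on its brightest probe. The other *LHCB1* genes were alike, with -1.36 for *LHCB1.2*, -1.41 for *LHCB1.3*, -1.21 for *LHCB1.4* and -1.15 for *LHCB1.5*. The 5 genes lie in 2 clusters of direct neighbours in the genome and encode near-identical proteins, and the specificity of their probes was not checked, so that they cannot be taken as 5 separate measurements. The lowest adjusted p of any member at 0 h was that of *LHCB1.4* (AT2G34430), 0.0971, and its 2 probes disagreed, at -1.21 and 0.35.

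*LHCA4* (AT3G47470), an antenna protein of photosystem I, had log2 signals of 2.33, 2.27 and 2.5 in WT and of 0.79, 0.75 and 1.53 in *agb1* at 0 h. The difference of -1.22 ± 0.35 (SE) had an adjusted p of 0.11 in limma, and all 3 *agb1* arrays were the lower. *PSAF* (AT1G31330), which docks plastocyanin to photosystem I, had 2.21, 2.18 and 2.12 in WT against 1.3, 1.28 and 1.63 in *agb1*, again without overlap, with a difference of -0.71 ± 0.34 (SE, adjusted p = 0.288). *PSBO1* (AT5G66570), which stabilizes the oxygen-evolving cluster of photosystem II, had 2.75, 2.97 and 2.52 in WT against 1.73, 1.64 and 2.68 in *agb1*. For *PSBO1* replicate 3 of *agb1* lay within the range of WT. *PSAH2* (AT1G52230), a photosystem I subunit on the side where mobile antenna docks, was well above background on all 3 WT arrays at 0 h and on no *agb1* array, and was at least 1.94-fold higher in WT (adjusted p = 0.125 in limma). This bound sets the mean of the bright group against the lowest signal among probes well above background on each dim array.

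Across the complexes, the median difference at 0 h was -0.86 for RBCS, -0.48 for RCA, -0.72 for LHCA, -0.70 for LHCB, -0.75 for PSI and -0.60 for PSII. All 4 RBCS, 11 PSI and 9 PSII genes had estimates below 0, as had 5 of 6 LHCA and 13 of 15 LHCB. The 3 exceptions were *LHCA6*, *LHCB2.1* and *LHCB2.3*. *LHCB2.3* (AT3G27690) had the highest estimate, 0.89 ± 0.90 (SE, adjusted p = 0.615), with -5.73, -5.51 and -5.89 in WT and -5.57, -4.94 and -4.38 in *agb1*, and its spread was the widest of all members. Over probes, 120 of the 128 probes of members other than RBCS that passed the filter on dim probes had a lower mean in *agb1*, and 22 of the 23 RBCS probes.

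The size of the difference at 0 h depended on *agb1* replicate 3. Without it the median over members was -1.08, with -1.01 for both LHCA and LHCB, -1.19 for PSI and -1.06 for PSII. RBCS moved the other way, from -0.86 to -0.33, and RCA went from -0.48 to -0.78. Between arrays of 1 slide the median over all members was -1.03 on slide 1 and -0.19 on slide 3. For members other than RBCS these within-slide values were -1.09 and -0.13, and for RBCS -0.48 and -0.70. With the 12 arrays as 12 samples 6 members were called lower, *LHCA4*, *LHCB1.2*, *LHCB1.3*, *LHCB1.4*, *LHCB1.5* and *PSAH2*, against 5.11% of all genes.

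**Figure D2:**
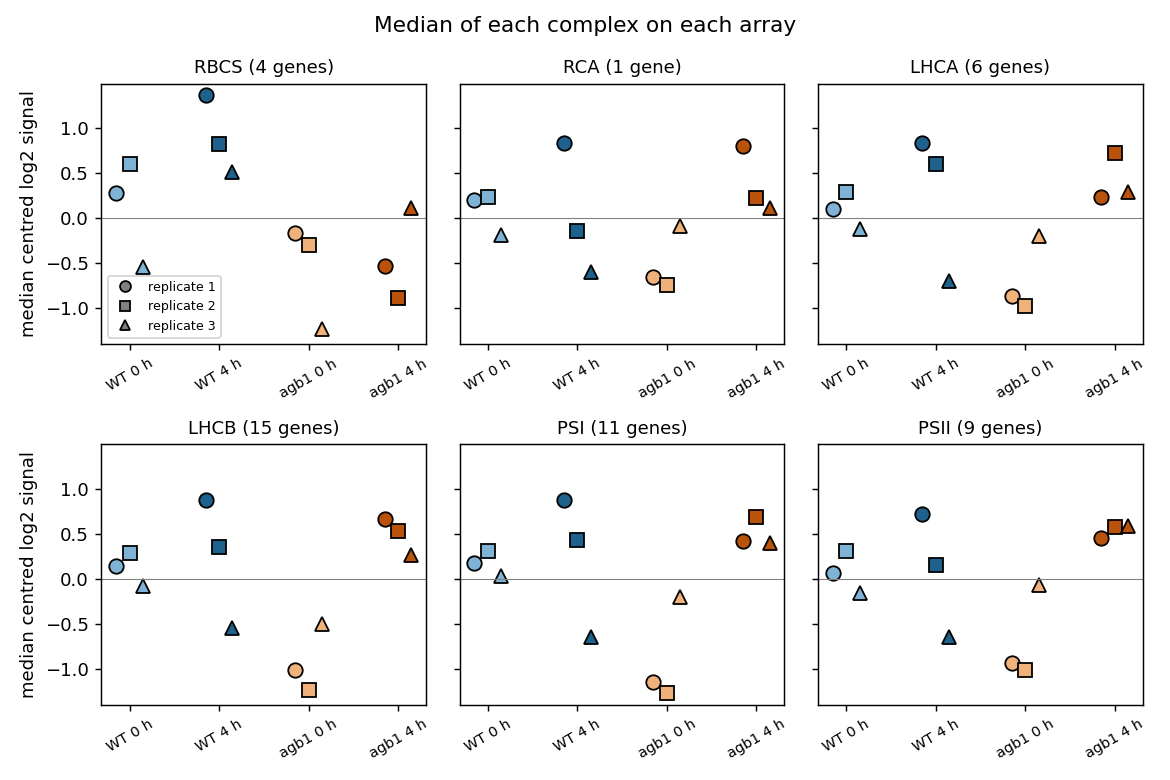
Median over the genes of each complex of the log2 signal minus each gene's mean over the 12 arrays (vertical axis, log2), for each array of the 4 groups (horizontal axis), with the replicate number as the symbol. In *agb1* at 0 h replicate 3 is the highest of its group in 5 panels and the lowest for RBCS, where it lies at -1.23.

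Over 4 h of salt in *agb1*, 45 of 46 members had a higher mean, with a median log2 change of 1.08, against -0.04 over all genes. At an adjusted p below 0.05 limma called 1 member higher, *LHCB7*, and 0 lower, against 1.41% and 0.706% of all genes. At an unadjusted p below 0.05 there were 24 higher and 0 lower, against 10.9% and 11.2%. All 3 arrays at 4 h lay above all 3 at 0 h for 39 of 46 members (84.8%), against 16.2% of all genes, and below them for 0 members, against 18.4%. The 3 arrays at 0 h include the near-identical replicates 1 and 2, here and in the counts by complex below. Of the 39, *LHCA6* passed the filter on dim probes only through the arrays at 4 h. This comparison shares the *agb1* arrays at 0 h with the one above, so that the low values at 0 h enter both.

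*LHCB7* (AT1G76570), a rarely studied relative of the photosystem II antenna proteins, rose in *agb1* from -3.23, -3.21 and -3.44 at 0 h to -2.42, -2.34 and -2.47 at 4 h. The change of 0.92 ± 0.19 (SE) had an adjusted p of 0.0475 in limma, and the arrays did not overlap. The residual SD of *LHCB7* over the groups was 0.209, the lowest of all members. The median over members was 0.526 (range 0.209 to 1.13), against 0.254 over all genes, and 16.4% of all genes had a residual SD above 0.526. The call of *LHCB7* is a near one. Its adjusted p was 0.013 to 0.146 when single arrays were left out and 0.0026 to 0.285 over the other alternatives, with a call in 9 of 15 of them.

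The highest estimate in *agb1* was that of *LHCB2.2* (AT2G05070), of the trimeric photosystem II antenna, with -1.21, -1.44 and -0.40 at 0 h and 0.68, 0.88 and 1.11 at 4 h. Its change was 1.75 ± 0.47 (SE, adjusted p = 0.0859 in limma). *LHCB1.5* (AT2G34420) had 1.77, 1.62 and 2.43 at 0 h and 3.66, 3.41 and 2.86 at 4 h, a change of 1.25 ± 0.36 (SE, adjusted p = 0.0993), and the arrays of both times did not overlap for either gene. *LHCA4* went from 0.79, 0.75 and 1.53 to 2.29, 2.70 and 2.37, a change of 1.31 ± 0.35 (SE, adjusted p = 0.0838). *PSAF* had 2.24, 2.25 and 1.76 at 4 h and a change of 0.63 ± 0.34 (SE, adjusted p = 0.309). *PSBO1* had 2.95, 3.16 and 3.24 at 4 h and a change of 0.94 ± 0.42 (SE, adjusted p = 0.234). *PSBQ-2* (AT4G05180), a luminal protein of the oxygen-evolving complex, had -2.49, -2.55 and -1.22 at 0 h and -0.90, -0.63 and -0.47 at 4 h. For each of these genes all 3 arrays at 4 h were above all 3 at 0 h. The 4 h levels of these 6 genes in *agb1* stand beside those of WT at 0 h as a description, with no test. *LHCB1.5* had 3.31 ± 0.41 (SD, n = 3) in *agb1* at 4 h against 3.21 ± 0.05 (SD, n = 3) in WT at 0 h, and *LHCA4* had 2.45 ± 0.22 against 2.37 ± 0.12. *PSAF* had 2.08 ± 0.28 against 2.17 ± 0.05, *PSBQ-2* had -0.66 ± 0.22 against -0.75 ± 0.12 and *PSBO1* had 3.12 ± 0.15 against 2.75 ± 0.23, and for these 5 genes the arrays overlapped. *LHCB2.2* had 0.89 ± 0.21 against -0.34 ± 0.32, and all 3 *agb1* arrays at 4 h were above the WT arrays at 0 h.

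By complex, the median change in *agb1* was 1.22 for LHCA, 1.21 for LHCB, 1.12 for PSI and 1.08 for PSII, and 0.77 for RCA. It was 0.28 for RBCS, whose genes had estimates of 0.23 to 0.45 with adjusted p of 0.617 to 0.781, and without *agb1* 0 h replicate 3 its direction turned, with estimates of -0.22 to -0.20 and a median of -0.21. Arrays did not overlap for all 6 LHCA genes, 14 of 15 LHCB, 9 of 11 PSI, all 9 PSII and RCA, and for 0 of 4 RBCS. *RCA* (AT2G39730) had -0.39, -0.48 and 0.17 at 0 h and 1.06, 0.49 and 0.37 at 4 h in *agb1* (0.77 ± 0.40, SE, adjusted p = 0.288). Of its 9 probes, 8 were higher at 4 h. The 1 member with a lower estimate was *LHCB2.3* (-0.05 ± 0.90, SE), with -5.57, -4.94 and -4.38 against -6.64, -4.06 and -3.92. *LHCA6* (AT1G19150), which in Arabidopsis helps to join photosystem I to the NDH complex, was well above background on all 3 *agb1* arrays at 4 h and on none at 0 h. It passed the filter on dim probes only through these 4 h arrays. Its detection there therefore carries no support, and no fold change is given. *PSAH2*, above background on 2 of 3 *agb1* arrays at 4 h, was at least 1.72-fold higher than at 0 h (adjusted p = 0.149 in limma).

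Among the other photosystem subunits, *PSAL* (AT4G12800), which lies beside *PSAH2* at the docking side of photosystem I, had the highest estimate, 1.67 ± 0.53 (SE, adjusted p = 0.122 in limma). Its log2 signals in *agb1* were -5.72, -5.63 and -4.32 at 0 h and -3.75, -2.93 and -3.28 at 4 h, without overlap, although replicate 3 at 0 h was close to the WT arrays at 0 h (-4.18, -3.74 and -4.35). The 11 PSI genes had estimates of 0.63 to 1.67 with salt in *agb1* (adjusted p of 0.0921 to 0.498), and of -1.26 to -0.29 for *agb1* against WT at 0 h. The 9 PSII genes, among them those of the oxygen-evolving complex, were more uniform, with 0.80 to 1.29 with salt (adjusted p of 0.1 to 0.301) and -1.12 to -0.56 at 0 h. The 6 LHCA genes ran from 0.47 to 1.31 with salt, the lowest being *LHCA5*, a rare antenna protein of photosystem I.

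The median change in *agb1* was above 0 on each slide for which it could be formed. Its median over members was 1.4, 0.63 and 1.59 on slides 1, 3 and 4, and 1.45 without *agb1* 0 h replicate 3. RBCS differed between slides, with -0.40 and -0.59 on slides 1 and 4 and 1.34 on slide 3. The count of calls differed between settings, and the cause was not tested. It was 14 without WT 4 h replicate 3, against 3.28% of all genes, and 19 with the 12 arrays as 12 samples, against 6.63%. Without WT 4 h replicate 3 the estimates in *agb1* were unchanged, with a median of 1.08. The median residual SD of the members was then 0.375, against 0.526 with that array. The fit with 12 samples counts the near-identical *agb1* arrays at 0 h as separate samples. Of the 14, all but *LHCA6* were among the 19.

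**Figure D3:**
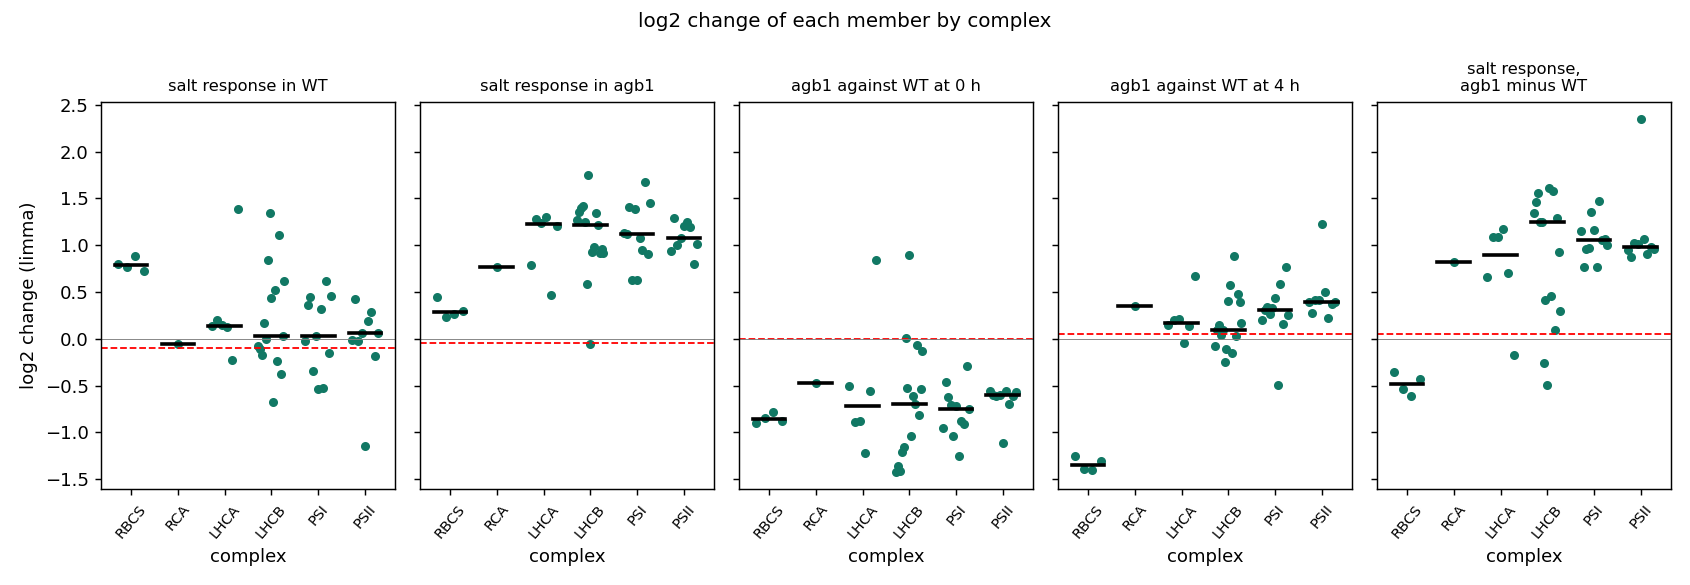
Log2 change of each member (points) in the 5 comparisons, by complex, with the median of each complex as a black bar and the median of all genes as a red dashed line. In *agb1* the medians of LHCA, LHCB, PSI and PSII lie between 1.08 and 1.22, whereas in WT they lie between 0.03 and 0.14. RBCS stands at -1.35 for *agb1* against WT at 4 h, where the other complexes lie between 0.10 and 0.39.

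In WT the salt response of the members had a median log2 change of 0.13, against -0.10 over all genes, with 28 members above and 18 below 0. At an adjusted p below 0.05 limma called 1 member higher and 0 lower, against 8.84% and 11.2% of all genes, and at an unadjusted p below 0.05 it called 5 higher and 0 lower, against 14.2% and 21.3%. The arrays of both times did not overlap for 3 members higher and 1 lower, against 17.7% and 27.5% of all genes. These shares are below those of all genes.

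The member called in WT was again *LHCB7*, which rose from -3.23, -3.02 and -3.33 at 0 h to -2.44, -2.34 and -2.96 at 4 h. The change was 0.62 ± 0.17 (SE, adjusted p = 0.0355 in limma), all 3 arrays at 4 h were the higher, and its adjusted p ran from 0.00041 to 0.837 over the other alternatives and from 0.0068 to 0.124 when single arrays were left out. After normexp background correction the estimate was -0.091, where the median of all genes was -0.31. Its 2 probes gave 0.62 and 0.67 under the scaling used here. The difference between the salt responses of *LHCB7* in *agb1* and WT was 0.30 ± 0.26 (SE, adjusted p = 0.664).

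*LHCB2.2* and *LHCA6* followed, with adjusted p of 0.0516 and 0.0513. *LHCB2.2* had -0.09, -0.70 and -0.23 at 0 h and 1.73, 1.28 and 0.01 at 4 h in WT, a change of 1.34 ± 0.42 (SE), and the lowest array at 4 h was just above the highest at 0 h. *LHCA6* had the largest estimate in WT, but was well above background on 1 of the 6 WT arrays, replicate 2 at 4 h, so that no fold change is given. *LHCB4.3* (AT2G40100), a form of the minor antenna protein LHCB4, had -3.18, -2.96 and -3.63 at 0 h and -1.87, -1.29 and -3.27 at 4 h, a change of 1.11 ± 0.51 (SE, adjusted p = 0.152). *LHCB1.5* had 3.79, 3.25 and 2.60 at 4 h against 3.23, 3.26 and 3.16 at 0 h, a change of 0.00 ± 0.32 (SE). *LHCA4* had 2.94, 2.77 and 1.77 at 4 h in WT, on both sides of its 0 h arrays.

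*PSBQ-2* had the lowest estimate in WT, -1.14 ± 0.57 (SE, adjusted p = 0.186). Its log2 signals were -0.82, -0.62 and -0.82 at 0 h and -0.88, -1.43 and -3.38 at 4 h, and without replicate 3 at 4 h the estimate was -0.40. *PSAF* had 2.51, 1.82 and 1.13 at 4 h, *PSBO1* 3.47, 2.81 and 1.91 and *RCA* 1.09, 0.12 and -0.34. For all 3 genes replicate 1 was the highest and replicate 3 the lowest at 4 h. The SD of *PSBO1* over the 3 arrays was 0.79 at 4 h against 0.23 at 0 h, and that of *PSAF* 0.69 against 0.05.

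Without WT 4 h replicate 3 the median change of the members in WT was 0.48 and 6 members were called higher, *LHCB7*, *LHCB2.2*, *LHCB4.1*, *LHCB4.3*, *LHCA6* and *PSAO*, against 8.58% of all genes. Without WT 4 h replicate 1 the median was -0.22, and the call was then of *LHCB3*, lower. On slide 1 the median was 0.72 and on slide 3 it was -0.55. The direction of the members in WT therefore differed between the slides. The RBCS genes had the same direction on both, with 1.11 and 1.04, and their estimates were 0.73 to 0.88 with adjusted p of 0.139 to 0.22.

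**Figure D4:**
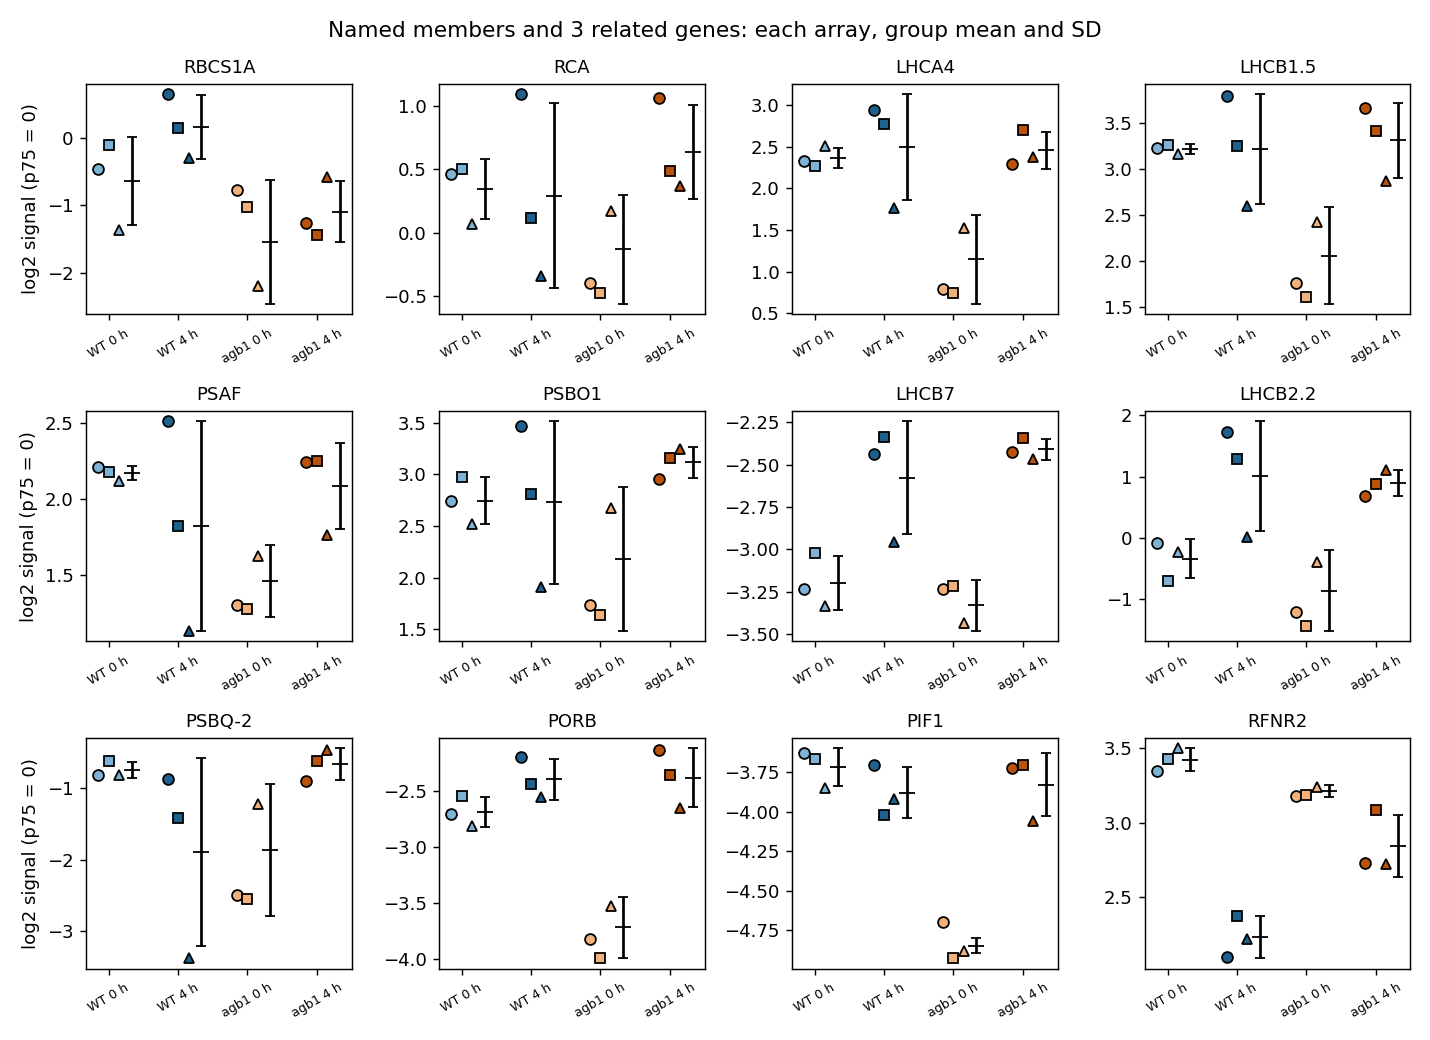
Log2 signal of 9 members and of *PORB*, *PIF1* and *RFNR2* on each array (symbols by replicate number), with the group mean and SD beside them (n = 3, and n = 2 in *agb1* at 0 h, where replicates 1 and 2 are 1 sample). In WT at 4 h *PSBO1* runs from 1.91 to 3.47, whereas in *agb1* at 4 h it runs from 2.95 to 3.24.

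At 4 h of salt the median difference of *agb1* from WT was -1.35 for RBCS and 0.10 to 0.39 for the other complexes. All 4 RBCS genes were lower in *agb1* on all 3 arrays than on any WT array. These are 4 of 46 members (8.7%), a share near the 7.07% of all genes. No other member was without overlap in either direction, with 11.6% of all genes higher. No member passed an adjusted p of 0.05, with 1.04% of all genes lower and 0.615% higher, and at an unadjusted p below 0.05 the 4 lower members were the 4 RBCS genes, with 0 higher, against 6.03% and 8.33%. The median over the other 42 members was 0.27, and that over all 46 was 0.24, against 0.05 over all genes.

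*RBCS1A* (AT1G67090), a gene of the Rubisco small subunit, had 0.64, 0.15 and -0.30 in WT and -1.26, -1.44 and -0.59 in *agb1* at 4 h. The difference was -1.26 ± 0.44 (SE, adjusted p = 0.225 in limma). *RBCS2B* (AT5G38420) had -1.03, -1.61 and -1.84 in WT and -2.96, -3.41 and -2.3 in *agb1*, a difference of -1.4 ± 0.39 (SE, adjusted p = 0.13). *RBCS3B* (AT5G38410) differed by -1.39 and *RBCS1B* (AT5G38430) by -1.3, with adjusted p of 0.125 and 0.161. *RBCS1B*, *RBCS2B* and *RBCS3B* are direct neighbours of nearly the same sequence, so that probes of one may read the others. Of the 23 RBCS probes that passed the filter, 21 were lower in *agb1* at 4 h, and the 23 had a range of -1.46 to 0.35. The higher ones were 1 probe of *RBCS3B* and 1 of *RBCS1B*, with mean log2 signals of -6.61 and -7.50 over the arrays. The other RBCS probes that passed had means of -4.91 to -0.73. Those dropped by the filter were higher in *agb1* at 4 h, by 0.03 to 0.61.

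The difference of RBCS at 4 h was below 0 on each of the 3 slides, with medians of -1.90, -1.71 and -0.42 on slides 1, 4 and 3. For the other 42 members the medians on the same slides were -0.36, 0.21 and 0.91, and without WT 4 h replicate 3 the median of all 46 members was -0.20. Without WT 4 h replicate 3 the RBCS median at 4 h was -1.53. At 0 h the RBCS estimates were -0.90 to -0.78, but the arrays overlapped, and without *agb1* 0 h replicate 3 they were -0.40 to -0.25. *RBCS1A* had -0.46, -0.10 and -1.36 in WT and -0.77, -1.02 and -2.19 in *agb1* at 0 h, so that replicate 3 was the lowest in both genotypes.

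Set against the other 42 members on the same array, the median of RBCS was lower on all 3 *agb1* arrays at 4 h, with differences of -1.0, -1.47 and -0.26 on the log2 scale, and higher on all 3 WT arrays at 4 h, with 0.52, 0.46 and 1.12. At 0 h the WT arrays had 0.16, 0.29 and -0.41. The *agb1* arrays at 0 h had 0.85, 0.83 and -1.0, where the 2 near-identical arrays and replicate 3 had opposite signs. These values are a description of the arrays and carry no test.

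The highest estimate at 4 h was that of *PSBQ-2*, 1.23 ± 0.57 (SE, adjusted p = 0.374 in limma), with -0.90, -0.63 and -0.47 in *agb1* against -0.88, -1.43 and -3.38 in WT. Without WT 4 h replicate 3 it was 0.49. *LHCA4* differed by -0.04 ± 0.31 (SE) and *LHCB1.5* by 0.10 ± 0.32 (SE) at 4 h. All 9 PSII genes and 10 of 11 PSI genes had estimates above 0 at 4 h, but their arrays overlapped, and WT 4 h replicate 3 was the lowest of the WT arrays at 4 h for each. Without that array 5 of 9 PSII genes and 2 of 11 PSI genes had estimates above 0, with medians of 0.04 and -0.12, and the median was -0.28 for LHCA and -0.29 for LHCB.

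The interaction, which subtracts the change with salt in WT from that in *agb1*, had a median of 0.98 over the members, against 0.05 over all genes, with 39 of 46 above 0. No member passed an adjusted p of 0.05 in limma, where 0.0912% of all genes were called higher and 0.0873% lower. At an unadjusted p below 0.05 there were 12 higher and 0 lower, against 7.18% and 5.21%. The largest estimate was that of *PSBQ-2*, 2.34 ± 0.86 (SE, adjusted p = 0.321), and the lowest that of *RBCS2B*, -0.62 ± 0.59 (SE, adjusted p = 0.7). The estimate for *PSBQ-2* was 1.60 when WT 4 h replicate 3 was dropped, and was 2.99 when *agb1* 0 h replicate 3 was. All 11 PSI and all 9 PSII genes had estimates above 0, with medians of 1.06 and 0.99, LHCB had 1.25 and LHCA 0.89, and all 4 RBCS genes were below 0, with -0.48. The median over members was 0.55 on leaving out WT 4 h replicate 3 and was 1.45 on leaving out *agb1* 0 h replicate 3. It was 0.70 on slide 1 and 1.15 on slide 3. By complex, leaving out WT 4 h replicate 3 gave 0.48 for LHCA, 0.84 for LHCB, 0.56 for PSI, 0.65 for PSII and -0.67 for RBCS. Leaving out *agb1* 0 h replicate 3 gave 1.19, 1.48, 1.66, 1.45 and -0.99. For RBCS the slides gave -1.43 and 0.26.

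Genes that work beside the members were followed as lists. Of 13 Calvin cycle genes tested, all 13 had estimates above 0 with salt in *agb1*, with a median of 0.62. In any of the 5 comparisons 1 was called, against 21.5% of all genes. This was *TKL1* (AT3G60750), a transketolase, which fell by 0.57 on the log2 scale in WT (adjusted p = 0.0119 in limma). Of 10 genes for electron transfer and ATP synthase, all 10 had estimates above 0 with salt in *agb1*, with a median of 0.53. There 1 was called higher, against 1.41% of all genes, and in WT 2 were, against 8.84%. *FD2* (AT1G60950), the main leaf ferredoxin, rose in both genotypes. It had 1.58, 1.54 and 1.55 at 0 h and 2.03, 2.17 and 1.96 at 4 h in WT, a change of 0.50 ± 0.10 (SE, adjusted p = 0.0112). In *agb1* it rose from 1.59, 1.65 and 1.62 to 2.27, 2.44 and 2.3, a change of 0.72 ± 0.12 (SE, adjusted p = 0.0197). *ATPD* (AT4G09650), the delta subunit of the plastid ATP synthase, rose by 0.42 in WT (adjusted p = 0.0463).

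The root-type genes for electron transfer, which pass electrons from NADPH to ferredoxin in plastids that do not photosynthesize, had estimates below 0 with salt in WT. Of the 3, 2 were called lower, against 11.2% of all genes. *RFNR2* (AT1G30510), a root-type ferredoxin-NADP reductase, fell from 3.35, 3.42 and 3.50 at 0 h to 2.09, 2.37 and 2.22 at 4 h, a change of -1.20 ± 0.13 (SE, adjusted p = 7.1e-04 in limma). *RFNR1* (AT4G05390) fell by 0.79 (adjusted p = 0.0075). In *agb1* the changes of *RFNR2* and *RFNR1* were -0.37 and -0.31, with adjusted p of 0.195 and 0.299, and their interactions had adjusted p of 0.172 and 0.426. The other gene of the list, *FD3*, was not called.

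Of 15 chlorophyll synthesis genes tested, 1 was called in any comparison, against 21.5% of all genes. This gene was *PORB* (AT4G27440), which reduces protochlorophyllide in light. It was lower in *agb1* at 0 h, with -3.83, -4.0 and -3.53 against -2.71, -2.55 and -2.81 in WT, a difference of -1.03 ± 0.20 (SE, adjusted p = 0.0378 in limma). With salt it rose in *agb1* to -2.13, -2.36 and -2.65, a change of 1.34 ± 0.20 (SE, adjusted p = 0.014). In WT the estimate for *PORB* was 0.29 ± 0.17 (SE, adjusted p = 0.26), and its interaction was 1.05 (adjusted p = 0.178).

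Of 10 regulators of photosynthesis genes tested, 4 were called in at least 1 of the 5 comparisons, against 21.5% of all genes. *PIF1* (AT2G20180), a phytochrome-interacting factor that acts on chlorophyll synthesis genes, was lower in *agb1* at 0 h, with -4.70, -4.93 and -4.88 against -3.63, -3.67 and -3.85, a difference of -1.13 ± 0.16 (SE, adjusted p = 0.0144 in limma). It rose in *agb1* with salt to -3.72, -3.70 and -4.06 (1.02 ± 0.16, SE, adjusted p = 0.0167), and its interaction was 1.19 (adjusted p = 0.0709). *GNC* (AT5G56860), a GATA factor that promotes greening, rose in WT from -6.52, -6.71 and -6.42 to -5.10, -4.75 and -3.28, by 2.17 ± 0.41 (SE, adjusted p = 0.0078), and was lower in *agb1* at 4 h, with a difference of -2.07 (adjusted p = 0.0444). *GNC* was highest on WT 4 h replicate 3, where the members were lowest. *GUN1* rose in WT by 0.72 (adjusted p = 0.0467). *PIF4* was also called higher in WT (adjusted p = 0.0211), but all its arrays at 0 h were too dim to stand well above background, so that no fold change is given. *GLK1* and *CGA1* did not pass the filter on dim probes, and *GLK2* (AT5G44190), a factor that drives antenna genes, had an estimate of 1.2 with salt in *agb1* and an adjusted p of 0.0921. Of 6 light-stress relatives of the antenna proteins, 1 was called higher in *agb1*, against 1.41% of all genes. This was *SEP1*, which rose by 0.76 (adjusted p = 0.0457 in limma).

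These calls of list genes differed in how they held when each of the 12 arrays was left out in turn. Those of *RFNR1*, *RFNR2* and *GNC* in WT held in all 12 cases. Those of *FD2* in WT and of *PORB* and *PIF1* with salt in *agb1* held in 11, and that of *FD2* in *agb1* in 10. *TKL1* and *PIF4* held in 9, *PIF1* at 0 h in 8 and *PORB* at 0 h in 6. *ATPD*, *GUN1*, *SEP1* and *GNC* at 4 h held in 4. Of the tissue markers in WT, *CER1* held in 9, *SCR* and *MYB36* in 7 and *SHR* in 3. Without *agb1* 0 h replicate 3 the adjusted p in limma was 0.0546 for *PORB* and 0.0531 for *PIF1* at 0 h, 0.054 for *GNC* at 4 h and 0.0724 for *SEP1*. Without WT 4 h replicate 3 it was 0.0708 for *ATPD* and 0.114 for *GUN1*.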

How the data were processed

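Roots of WT and *agb1* were measured on 12 single-colour Agilent arrays. The authors deposited the scanner output of each array, and the background-corrected intensity of 43803 spots was used, with the median spot and background intensity for 1 alternative. The file headers name Feature Extraction 10.7.1.1 and the submitters' processing notes 9.1, and the labels name another RNA reagent than the methods. The deposited intensity was turned into log2 values minus the 75th percentile of each array in R 4.3.3, without outlier spots (2 to 28 per array). Of 43603 probes, 34358 matched 25433 loci by accession and a RefSeq table for TAIR10.1. No coordinates or sequences are given. A probe was kept when well above background on all arrays of 1 group, and the brightest kept probe stands for a gene; 38 members had several. This gave 25207 genes, of which 4645 had no locus.

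A limma 3.58.1 model of 4 group means on 11 samples gave 5 comparisons, with two-sided p-values and Benjamini-Hochberg adjustment over all genes, and a call at an adjusted p below 0.05. Replicates 1 and 2 of *agb1* at 0 h were averaged, since they differed by less than repeated spots of 14 probes did by their median SD, and 73 bright probes differed over 1.5-fold, against 361 to 4284 in other pairs. By the mean variance of those spots 2 pairs of WT at 0 h would also lie below. The p-values rest on 1 residual spread pooled over the 4 groups, and the number of arrays limits their precision. The groups differed in spread, as for *PSAF*, with an SD of 0.05 in WT at 0 h and 0.69 in WT at 4 h. A p-value at 0 h therefore also draws on the spread at 4 h.

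The members and lists were chosen with earlier results of these data known. Named are the brightest member of each complex, called members, the largest rise and fall in each comparison, members below background and called genes of other lists. *LHCB4.3*, the other RBCS and *LHCB1* genes, members called only under an alternative, *GLK2* and *FD3* were added after their values were seen. The array values of *COBL9* and *EXPA7* are also given outside this rule. The correlation over genes of same-numbered arrays was 0.35 to 0.58 for WT and *agb1* at 4 h, so that the numbers pair those. It was -0.20 to 0.21 for other pairs of groups, although *agb1* at 0 h and at 4 h also share a slide for each number. The fit was tested on simulated data with independent noise for each gene and sample. The simulation held no slides, no genes that move together and no outlying array, so that it cannot speak to these. Alternatives were other background corrections, scalings, filters, probe rules, blocks, weights and left-out arrays; leaving out arrays by complex and for list genes was chosen after seeing the data.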

Additional observations from a re-analysis of the deposited data

How the results depend on the processing

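The median change of all members kept its direction under each scaling, filter, block and weighting planned. Leaving out single arrays gave -0.22 to 0.48 for salt in WT, 1.00 to 1.45 in *agb1*, -1.08 to -0.60 at 0 h, -0.20 to 0.55 at 4 h and 0.55 to 1.45 for the interaction. The counts of called members moved, and the cause was not tested. The share of all genes called follows in parentheses. Where no member was called, the number of genes called is given instead. Members called higher in WT (1 in the report) were 0 after normexp (579 of 25207 genes), without a filter (1827 of 34678) and with only the groups compared (2149 of 25207). They were 2 after quantile normalization, with probes above background on all arrays, with the mean of all probes and with a trend (8.44% to 9.05%). An unadjusted p below 0.05 with 2-fold also gave 2 (7.3%). They were 3 with 12 samples (9.83%) or slide as a random block (9.80%) and 10 with array weights (18.9%). In *agb1* (1 in the report) they were 0 after normexp (12 of 25207 genes) and quantile normalization (333 of 25207). They were also 0 without a filter (218 of 34678) and with the mean of all probes (356 of 25207). The groups compared (45 of 25207) and weights (124 of 25207) gave 0 too. They were 2 with slide as a fixed block (2.64%) or a trend (1.56%). They were 19 with 12 samples (6.63%) or slide as a random block (6.58%) and 20 by an unadjusted p with 2-fold (4.23%). Members called lower at 0 h (0 in the report) were 6 with 12 samples (5.11%) or slide as a random block (5.06%), 5 with the groups compared (2.51%) and 8 by an unadjusted p with 2-fold (3.09%). That rule called 4 members lower at 4 h (2.5%) and 10 higher for the interaction (2.43%). With the replicate block 2 members were called higher in WT (9.23%), 11 higher in *agb1* (5.20%) and 3 lower at 0 h (4.05%). In the 4 h arrays alone, which the numbers pair, 0 were called in either direction, with 5 genes higher and 33 lower. Without *agb1* 0 h replicate 3 its group has 1 sample, so that this fit is left out here. Leaving out other single arrays gave 0 to 6 calls higher in WT, 0 to 14 in *agb1*, 0 to 2 lower at 0 h and 0 to 1 lower in WT. Of all 25207 genes, 1125 to 2374, 89 to 827, 28 to 520 and 1096 to 3104 were called there. A setting chosen after seeing the data, 12 samples but for WT 4 h replicate 3, gave 6 higher in WT (9.57%), 35 in *agb1* (9.59%), and 18 lower (7.40%) and 1 higher (5.83%) at 0 h, and turned the median at 4 h to -0.20. *LHCB7* in WT was reversed by normexp, at -0.091. Normexp moved the median of all genes to -0.31 for salt in WT and 0.35 for the interaction.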
